A study of Mus musculus with 69 samples.

Results

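Bone marrow-derived macrophages (BMDMs) of NOD and C57 mice were compared under basal conditions, that is, without IL-4, in 3 RNA-seq libraries of each strain. The libraries were taken by the strain and the condition that the labels give, and they are 6 of the 69 samples of the series and 6 of the 29 libraries in the authors' expression table of 5 strains. NOD cells came from NOD/ShiLtJ mice, the nonobese diabetic line, and C57 cells from C57BL/6J mice, the line whose genome serves as the mouse reference. All donors were female and 8 to 12 weeks old, the marrow cells were grown for 7 days with the growth factor M-CSF, and neither strain carries an engineered allele. Other libraries were set beside them. These were 3 NOD and 3 C57 libraries after 24 hours of IL-4 at 20 ng/ml, the basal libraries of BALB (3), PWK (2) and SPRET (3) mice, and 2 basal libraries of F1 C57xNOD mice, in which each cell holds a C57 and a NOD genome. The methods call the libraries of a strain biological replicates. They do not say whether these came from separate animals or from separate cultures of the same marrow. The p-values and standard errors (SE) therefore measure a spread between libraries of a group, estimated for each gene over all 29 libraries of the 5 strains.

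Macrophages hold a baseline of antiviral, inflammatory and lipid-handling programmes before any stimulus is given. Interferon-stimulated genes are kept at a low level by weak signalling through the type I interferon receptor, chemokines and cytokines are set largely by NF-kB, and complement C1q, lipoprotein and cholesterol genes are set in part by nuclear receptors such as LXR. NOD mice develop autoimmune diabetes spontaneously, with macrophages among the first cells to enter the islets, whereas C57 mice do not.

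Expression was given in TPM, a unit scaled to transcript length and to the total of each library, so levels can be compared between genes. Comparisons between strains also depend on how the libraries are scaled, as described below. Differences are given as NOD minus C57 on the log2(TPM + 1) scale, which understates the change of genes near 0, and fold values are ratios of mean TPM. A gene was called when this difference exceeded 1, that is 2-fold, with an adjusted p under 0.05 in limma over the 11907 genes tested. The NOD libraries held between 11.01 and 14.01 M tags and the C57 libraries between 7.614 and 17.99 M, and replicates correlated across genes with Pearson r between 0.990 and 0.995, against 0.917 to 0.926 between strains. All 20 macrophage markers on the list had a mean above 0 in both strains, with summed levels between 25887 and 27010 TPM in NOD and between 32939 and 33858 TPM in C57. In bulk libraries, fewer cells of a type or state and less RNA per cell cannot be told apart.

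Of the genes tested, 613 (5.15%) were called higher in NOD and 1398 (11.7%) lower. In 610 and 1390 of them, respectively, the 3 NOD libraries did not overlap with the 3 C57 libraries, as was also true of 20.1% (NOD higher) and 53.9% (NOD lower) of all genes tested whatever their fold. At any fold, 20.1% of genes passed the adjusted p as higher and 54.1% as lower. The median difference of all genes was -0.30, and 68.8% of genes lay below 0, and the balance of the calls depended on how the libraries were scaled. With each library divided by its median ratio to a common reference, 1105 genes (9.28%) were called higher and 727 (6.11%) lower, and with quantile normalization 950 (7.98%) and 767 (6.44%). The share of calls that were higher in NOD was thus 30.5% with TPM as deposited, 60.3% with median-ratio scaling and 55.3% with quantile normalization. Ferritin moved with this shift: Fth1 and Ftl1, the heavy and light ferritin chains, took between 18.5% and 20.7% of all TPM in NOD and between 13.7% and 13.98% in C57, and the 100 genes with the highest TPM took 53.5% to 54.7% and 49.2% to 49.9%. The part of these genes in the shift was not tested. Called the same way under all 3 scalings were 607 genes (5.1%) higher and 676 genes (5.68%) lower. The counts of gene lists below are given with TPM as deposited and, where they differ, under all 3 scalings. They are to be read against these shares of all genes. Counts by run, chromosome, strain side, IL-4 and F1 allele rest on calls with TPM as deposited only. Of the 1398 lower calls among these, 676 held under all 3 scalings.

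**Figure D1:**
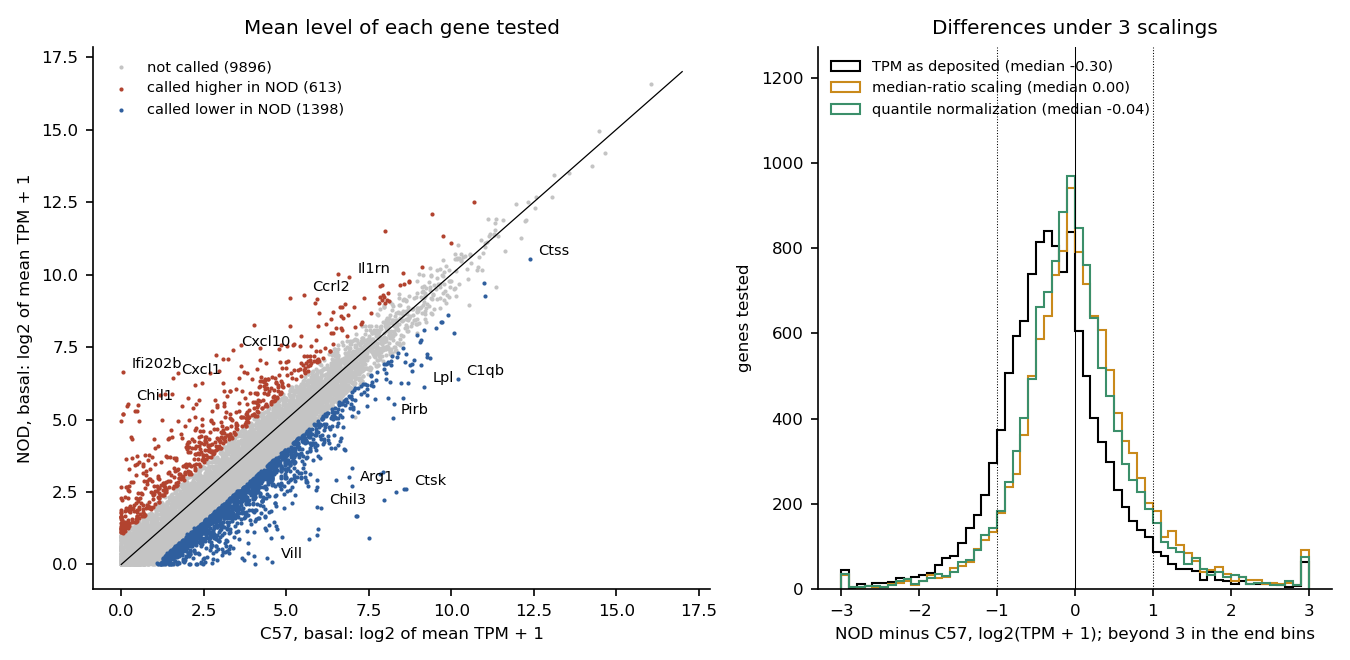
Left, log2 of mean TPM + 1 of each gene tested in basal C57 (x axis) and basal NOD (y axis), 3 libraries each, with called genes in colour and the line of equal values. Right, number of genes by difference, NOD minus C57 on the log2(TPM + 1) scale, under 3 scalings, with dotted lines at 1 and -1; the median lies at -0.30 with TPM as deposited, at 0.00 with median-ratio scaling and at -0.04 with quantile normalization.

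Interferon-stimulated antiviral genes that passed the test were mostly higher in NOD. Of 49 members tested, 15 were called higher and 2 lower, 15 and 1 under all 3 scalings and 26 and 1 with median-ratio scaling, with a median difference of 0.67 against -0.30 over all genes. Cxcl10, a chemokine that interferon induces, stood at 172, 159 and 169 TPM in NOD and at 9.88, 9.30 and 9.06 TPM in C57. All NOD libraries lay far above all C57 libraries. The difference was 4.01 ± 0.11 (SE), a 17.7-fold higher mean, with a limma adjusted p of 5.7e-20. Rsad2, which encodes the antiviral enzyme viperin, showed the same order. Its level was 413, 442 and 399 TPM in NOD against 81.7, 88.6 and 84.1 TPM in C57, without overlap (difference 2.29 ± 0.10, limma adjusted p = 5.6e-16). Oasl1, which restrains translation of the interferon regulator Irf7, was 4.41-fold higher and the dynamin-like GTPase gene Mx2 7.45-fold higher. Mx1 was 2.26-fold higher, with a difference of 1.03 that stood just past the threshold, and which was 0.95 without NOD replicate 2 and 0.97 without C57 replicate 3, neither past 2-fold. Isg15, a ubiquitin-like protein, was at 581 ± 30.1 TPM in NOD and 163 ± 5.00 TPM in C57 (SD, n = 3 each), and Ifit1, which binds foreign RNA, at 163 ± 8.22 and 58.7 ± 0.981 TPM. Irf7, a regulator of the pathway, was not called with TPM as deposited. Irf7 differed by 0.82, or by 1.23 and past 2-fold with median-ratio scaling, at 1009 ± 19.2 TPM in NOD and 571 ± 11.2 TPM in C57. The members called lower were Eif2ak2 and Samhd1.

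The promoters of this group and of the chemokines were searched for 2 short motifs. The stretches of 250 bases before the start site are shown for 4 called genes, all of which hold a match. Many members of these groups hold none, and the shares are given below. The sequences are those of RefSeq on GRCm38.p6, the C57BL/6J genome, and carry no NOD variants. They are written 5' to 3' on the strand of the gene. Capitals mark the core of the interferon-stimulated response element, GAAA repeated after any 2 bases, or a form of the NF-kB site, GGGAA and TTCC around any 1 base, either on the written strand or on its complement. In Cxcl1 and Cxcl2 a pair of NF-kB matches on opposite strands overlap.
Cxcl10 (chr5:92348890-92349139, minus strand): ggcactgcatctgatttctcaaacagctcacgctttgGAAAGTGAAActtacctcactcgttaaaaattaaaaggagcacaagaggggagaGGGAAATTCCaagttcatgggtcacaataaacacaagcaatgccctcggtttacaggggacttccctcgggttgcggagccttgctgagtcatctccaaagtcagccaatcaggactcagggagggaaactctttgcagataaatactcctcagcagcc
Rsad2 (chr12:26456453-26456702, minus strand): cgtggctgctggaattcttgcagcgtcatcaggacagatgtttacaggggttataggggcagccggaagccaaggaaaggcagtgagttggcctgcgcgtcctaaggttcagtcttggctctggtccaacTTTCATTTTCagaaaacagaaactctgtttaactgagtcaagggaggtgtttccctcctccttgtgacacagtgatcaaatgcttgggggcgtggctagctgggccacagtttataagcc
Cxcl1 (chr5:90890995-90891244, plus strand): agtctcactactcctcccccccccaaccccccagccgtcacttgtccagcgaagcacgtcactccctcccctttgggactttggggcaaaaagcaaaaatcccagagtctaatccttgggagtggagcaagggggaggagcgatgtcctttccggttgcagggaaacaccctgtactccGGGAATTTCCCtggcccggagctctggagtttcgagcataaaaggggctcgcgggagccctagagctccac
Cxcl2 (chr5:90903649-90903898, plus strand): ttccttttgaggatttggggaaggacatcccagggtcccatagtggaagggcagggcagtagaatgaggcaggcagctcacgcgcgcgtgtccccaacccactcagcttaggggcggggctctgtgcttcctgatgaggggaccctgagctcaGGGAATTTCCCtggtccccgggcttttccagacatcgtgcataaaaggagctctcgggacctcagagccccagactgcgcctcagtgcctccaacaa

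The interferon motif was found, on either strand of the window from 250 bases before to 50 bases after the start, in 23 of the 40 interferon-stimulated genes with a promoter entry (57.5%) and in 3.99% of all 27025 genes in the promoter table. Among the members called higher in NOD, 7 of 13 (53.8%) held it, and among the tested members not called higher, 13 of 24 (54.2%). Cxcl10 carried it 213 bases before its start and Rsad2, on the complement, 120 bases before. The NF-kB match of Cxcl10 began 159 bases before the start, those of Cxcl1 71 and 70 bases before, and those of Cxcl2 97 and 96 bases before. The NF-kB motif, which was chosen after values were seen, was present in 4 of 17 chemokine promoters, those of Cxcl1, Cxcl2, Cxcl3 and Cxcl10, and in 0.396% of all genes. A match describes letters in the reference and not a bound site, and no match says only that these letters are not in the window.

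Related interferon families were split. Ifi202b, a DNA-binding member of the Ifi200 family known to be poorly expressed in C57BL/6 mice, had the largest difference of all genes called higher. It stood at 95.6, 107 and 95.9 TPM in NOD and at 0, 0.0930 and 0.0370 TPM in C57. The means of BALB, PWK and SPRET, at 33.5, 116 and 81.4 TPM, lay on the NOD side for Ifi202b. Of the 11 Ifi200 members tested, Ifi202b was the only one called higher, while 4 neighbours in the family were called lower, with Ifi211 at 5.69 ± 0.787 TPM in NOD and 27.9 ± 2.56 TPM in C57. Ifi205 and Ifi209 were 3.99-fold and 2.90-fold lower, and Ifi213 was near 0 in NOD. Ifi205, Ifi211 and Ifi213 share 52.9%, 78.9% and 53.0% of their 31-base words with other annotated genes, which leaves their levels uncertain. Among the interferon-inducible GTPases, which attack vacuoles that hold pathogens, 4 of 14 were called higher and 1 lower. Gbp5 was at 27.8, 32.3 and 25.6 TPM in NOD and at 5.84, 6.43 and 5.16 TPM in C57, a 4.91-fold higher mean. Gbp2b, Gbp3 and Gbp6 were also called higher, although 95.1% of the words of Gbp6 occur in other genes, and Irgm2 was 4.35-fold lower. Of the Schlafen family, whose members restrain translation and growth, 2 of 8 were called higher, Slfn3 by 3.31-fold and Slfn4 by 3.21-fold. The shares of all genes beside these family counts were 5.15% higher and 11.7% lower.

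Chemokines formed the list with the highest median difference, 1.05. Of 22 members tested, 12 were called higher and 2 lower, 11 and 1 under all 3 scalings. The summed level of the 25 listed was between 8457 and 8631 TPM in NOD and between 2699 and 2838 TPM in C57. Cxcl1, a neutrophil attractant, stood at 87.6, 81.1 and 85.7 TPM in NOD and at 1.30, 1.24 and 3.29 TPM in C57. The groups were separated by more than an order of magnitude in every pair of libraries (difference 4.93 ± 0.16, limma adjusted p = 1.4e-18). Cxcl2, its neighbour in the genome and in function, was at 199, 178 and 196 TPM against 12.4, 10.8 and 11.1 TPM. Cxcl14, a chemokine of epithelia and of resident cells, was at 41.9, 41.6 and 44.99 TPM in NOD and below 0.2 TPM in every C57 library (difference 5.27 ± 0.07). The CC chemokines Ccl3 and Ccl4 were 9.57-fold and 8.82-fold higher and Ccl2 and Ccl7, which draw monocytes, 5.59-fold and 8.26-fold higher. Ccl5 was the most abundant, at 5807 ± 102 TPM in NOD and 1652 ± 55.4 TPM in C57. Ccl8 and the platelet factor gene Pf4 were called lower, with Ccl8 at 16.3 ± 2.65 and 60.3 ± 3.09 TPM.

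The receptors for chemoattractants went the other way. Of 13 tested, 9 were called lower in NOD, with TPM as deposited and under all 3 scalings, and 1 higher, and the median difference was -1.67. C5ar1, the receptor of complement fragment C5a, was at 4.58, 4.23 and 5.38 TPM in NOD and at 33.6, 31.1 and 28.9 TPM in C57. Fpr1, which senses formylated bacterial peptides, was 6.19-fold lower, and the chemerin receptor gene Cmklr1 8.48-fold lower. Cx3cr1, the fractalkine receptor of monocytes, was at 0.485 ± 0.181 TPM against 4.98 ± 0.0903 TPM. The exception was Ccrl2, a chemerin-binding receptor that does not signal. It stood at 617, 597 and 653 TPM in NOD and at 49.1, 41.9 and 44.7 TPM in C57, without overlap (difference 3.76 ± 0.07, limma adjusted p = 1.4e-23).

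Of 36 cytokines and inflammatory mediators, 10 were called higher and 6 lower, against 5.15% and 11.7% of all genes. Under all 3 scalings these were 10 and 4. Il6 was at 11.2, 9.83 and 10.6 TPM in NOD and at 0.465, 0.441 and 0.466 TPM in C57. Il1rn, the secreted antagonist of the IL-1 receptor, was far more abundant, at 966, 928 and 984 TPM against 126, 118 and 114 TPM. Neither gene had overlapping libraries. Il1b itself differed by 0.60 and was not called, with 44.1 ± 6.505 TPM in NOD and 28.8 ± 5.10 TPM in C57, and Tnf was 7.88-fold higher. The inducible enzymes of prostaglandin E2 synthesis were higher together. Ptgs2, which encodes cyclooxygenase 2, was at 134, 130.4 and 141 TPM against 8.28, 6.19 and 7.96 TPM (difference 4.02 ± 0.08). Ptges, the next enzyme, was at 513 ± 19.4 TPM against 58.1 ± 0.787 TPM. The members called lower were Alox5 and Alox5ap of leukotriene synthesis, the constitutive cyclooxygenase Ptgs1, Igf1, Il16 and Hp. Of 15 inflammasome genes, 2 were called and both were lower, against 11.7% of all genes called lower. These were Mefv, the pyrin gene, and Naip6, the latter with TPM as deposited only. Casp4 differed by 0.72, or by 1.12 and past 2-fold with median-ratio scaling.

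**Figure D2:**
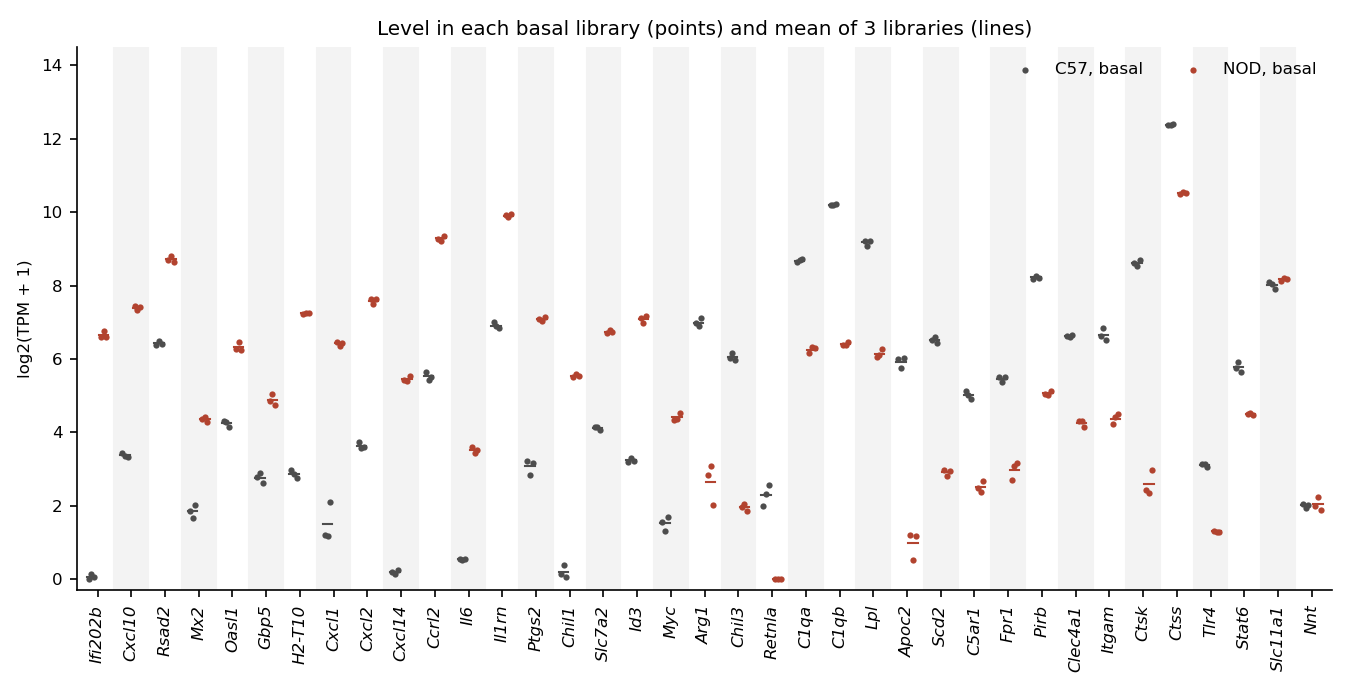
Level of named genes in each basal library on the log2(TPM + 1) scale, with points for the 3 libraries of C57 (grey) and NOD (red) and lines for their means. The strains overlap for Nnt, at 2.70 to 3.70 TPM in NOD and 2.85 to 3.13 TPM in C57, and are wide apart for genes such as Ifi202b and Ctsk.

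The strains carry different haplotypes of the MHC, the region of the antigen-presenting molecules, and its genes differed in both directions. Of 27 class I and antigen processing genes, 10 were called higher and 2 lower, also under all 3 scalings, with a median difference of 0.37. H2-T10, a non-classical class I gene, stood at 148, 152 and 150.5 TPM in NOD and at 6.86, 6.33 and 5.78 TPM in C57. H2-Q10, whose product is secreted, was at 57.06 ± 7.18 against 1.28 ± 0.286 TPM, and H2-Q1 was at 33.8, 36.1 and 37.8 TPM against 0.0440, 0 and 0.0660 TPM. BALB, PWK and SPRET had H2-Q1 at 29.2, 31.9 and 38.2 TPM, near NOD. H2-T22 and H2-T9 were lower in NOD, at 71.2 ± 2.87 and 71.1 ± 3.26 TPM against 191 ± 9.52 and 197 ± 9.76 TPM. These genes resemble each other: 62.1% of the 31-base words of H2-T10 and 62.8% of those of H2-T22 occur in other annotated genes, so the split of reads among them is uncertain. Tap2, which pumps peptides for class I and is not a member of a repeated family, was 2.18-fold higher. Of 10 class II genes, 8 were not called, and the median difference was -0.38 against -0.30 over all genes. H2-Oa was called higher and H2-Ob lower, against 5.15% and 11.7% of all genes. They encode subunits of a heterodimer that modulates peptide loading. H2-Ob was near the floor, at a mean of 0.160 TPM in NOD and 1.88 TPM in C57. Its difference was -0.41 with a pseudocount of 5, no longer past 2-fold.

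Called neighbours lay together in 99 runs of 3 or more genes whose starts were within 100 kb, which held 362 genes. Scattered calls can also form such runs, and whether these exceed that was not tested. The longest, at chr17:35861318-36257846 of mm10, held 14 called genes among 27 tested, 8 higher and 6 lower. It held class I genes and others such as Nrm, Ppp1r10 and Rpp21. The next, at chr17:35320558-35474563, held 9 called genes among 9 tested. It was made up of H2-Q genes, 8 higher and 1 lower. Overlapping and related genes can share reads, so members of a run need not be independent. By chromosome, between 12% (X) and 19.7% (6) of tested genes were called, against 16.9% in all.

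Complement genes that passed the test were lower in NOD. Of 21 components and receptors tested, 10 were called, all lower and all under all 3 scalings (2 more were called higher with median-ratio scaling), with a median difference of -0.87. The C1q subunits, which start the classical pathway and tag dead cells, moved together. C1qb was at 81.7, 82.1 and 87.4 TPM in NOD and at 1179, 1161 and 1201 TPM in C57, with no overlap (difference -3.80 ± 0.14, limma adjusted p = 1.8e-17). C1qa and C1qc were 5.43-fold and 4.36-fold lower. Itgam and Itgb2, which encode the subunits of the complement receptor Mac-1, were called lower, with Itgam at 19.8 ± 2.01 and 101 ± 11.1 TPM, although 93.5% of the words of Itgam also occur in another annotated gene.

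Of 26 LXR targets and lipid handling genes, 14 were called, all lower with TPM as deposited and 11 of them under all 3 scalings (1 gene was called higher with median-ratio scaling). The median difference was -1.15. Lpl, which releases fatty acids from lipoproteins, stood at 65.0, 67.5 and 75.7 TPM in NOD and at 597, 539 and 598 TPM in C57. Apoe, the main apolipoprotein of macrophages, was at 143, 134 and 138 TPM against 598, 683 and 670.1 TPM. Its neighbour Apoc2 was at 1.01 ± 0.487 TPM against 59.9 ± 6.17 TPM, with 98.6% of its words shared with an overlapping gene model. The desaturase genes were lower as well, Scd2 by 13.8-fold and Scd1 by 23.7-fold, and so were the cholesterol exporters Abca1 (3.30-fold) and Abcg1 (3.58-fold). Cholesterol synthesis and uptake showed 8 of 23 genes lower, 4 of them under all 3 scalings, among them Fdps of the mevalonate pathway (3.66-fold, with 90.7% of words shared). Insig1, which holds back cholesterol synthesis, was the only member called higher, at 45.6 ± 2.20 TPM against 13.0 ± 0.386 TPM.

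Most surface receptors of the innate system did not pass the test, and those that did were mainly lower in NOD. Of 29 paired immunoglobulin-like and TREM receptors, 12 were called lower, 10 of them under all 3 scalings, and 1 higher. Pirb, an inhibitory receptor that binds MHC class I, was at 32.0, 31.5 and 33.7 TPM in NOD and at 289.8, 307 and 296 TPM in C57. Pira6, an activating member of the same cluster, was 3.55-fold higher, and the family shares much sequence (46.5% of the words of Pirb). Among 23 C-type lectins and Siglecs, 9 were called lower, all under all 3 scalings, and 2 higher, 1 of them under all 3 scalings, with Clec4a1 at 18.7, 18.8 and 16.8 TPM against 97.8, 96.0 and 98.7 TPM. Clec12a, an inhibitory lectin, was 4.10-fold lower, while Clec4e, the Mincle receptor of mycobacterial lipids, was 2.15-fold higher, a call lost at 0.80 with quantile normalization, and Cd33 2.40-fold higher. The summed level of the lectin list was between 3341 and 3413 TPM in NOD and between 2696 and 2891 TPM in C57. Of 20 Toll-like receptors and adaptors, 6 were called lower, 5 of them under all 3 scalings, and 1, Cd14, higher, and the summed level of the list was between 1617 and 1771 TPM in NOD and between 1202 and 1229 TPM in C57. Tlr4, the endotoxin receptor, was at 1.50, 1.45 and 1.43 TPM in NOD and at 7.87, 7.80 and 7.38 TPM in C57. The endosomal nucleic acid sensors Tlr7, Tlr8, Tlr9 and Tlr13 were 3.03-fold, 27.5-fold, 3.74-fold and 7.82-fold lower. Fc receptors showed 2 of 8 lower, Fcgr3 and Fcgr4, and none of them under all 3 scalings. For these lists the shares of all genes were 11.7% lower and 5.15% higher, or 5.68% and 5.1% under all 3 scalings.

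**Figure D3:**
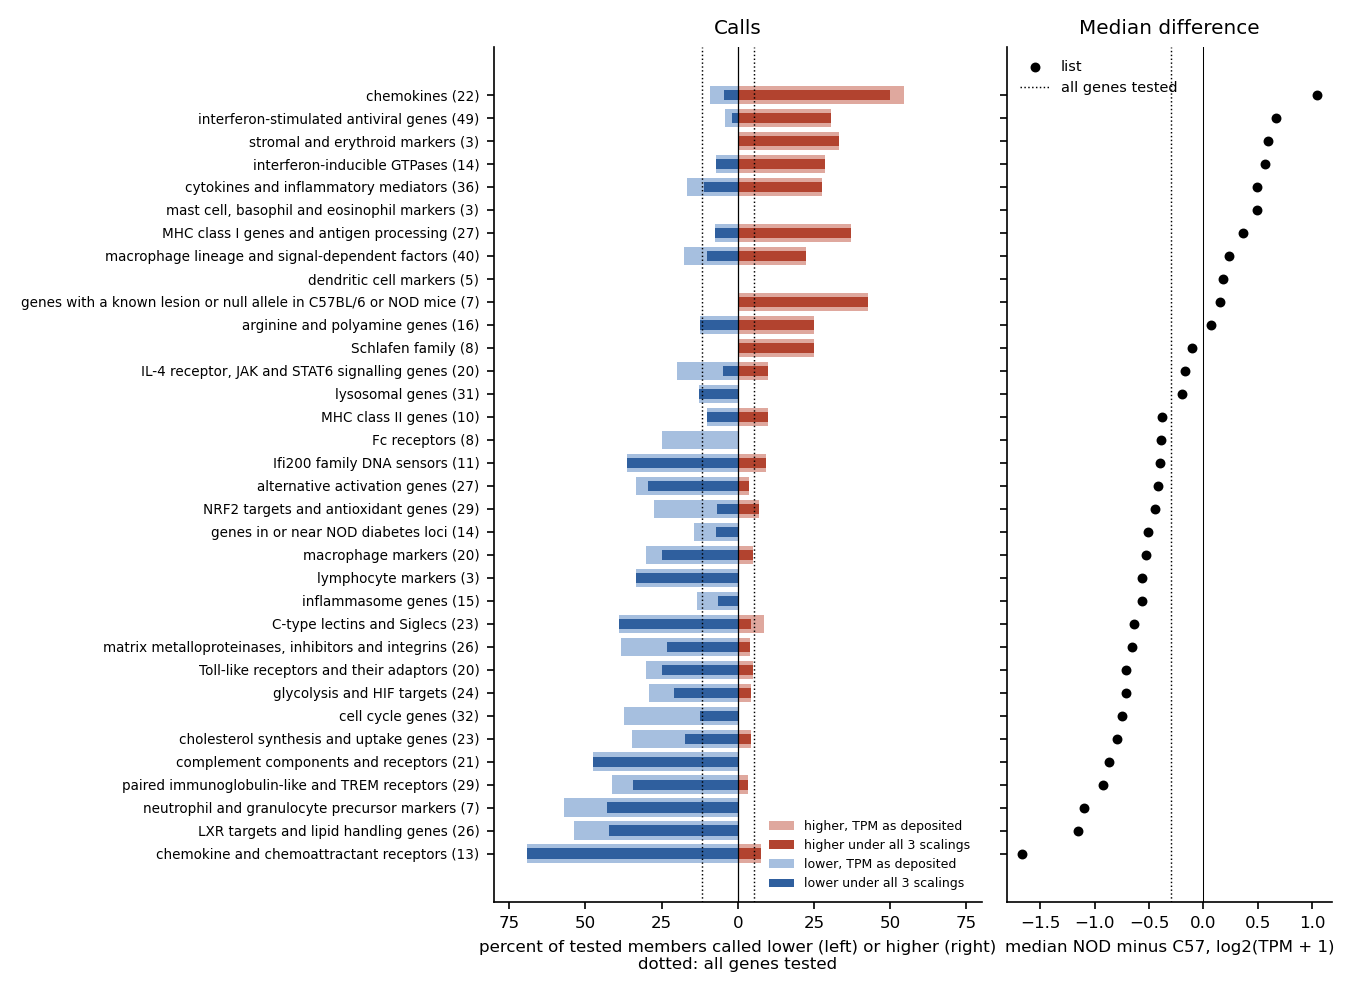
Left, share of the tested members of each gene list (number tested in brackets) called lower (to the left) or higher (to the right) in NOD, pale with TPM as deposited and dark under all 3 scalings, with dotted lines at the 11.7% and 5.15% of all genes tested. Right, the list's median difference, NOD minus C57 on the log2(TPM + 1) scale, beside the dotted median of all genes at -0.30; chemokines lie highest at 1.05 and chemoattractant receptors lowest at -1.67.

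Proteases differed gene by gene. Ctsk, the collagen-degrading cathepsin best known from osteoclasts, was at 4.38, 4.08 and 6.82 TPM in NOD and at 393, 372 and 417 TPM in C57, and none of its 31-base words occurs in another gene. The difference was -6.04 ± 0.09, a 77.4-fold lower mean, with a limma adjusted p of 5e-25. The means of BALB, PWK and SPRET, 717, 112 and 844 TPM, all lay above the NOD level of Ctsk. Ctss, which processes antigen, was among the most abundant genes and 3.62-fold lower. Of 31 lysosomal genes only these and Ctsc and Glb1, 4 in all, were called with TPM as deposited, all lower, against 11.7% of all genes. With median-ratio scaling 3 other members were called higher. The median difference of the list was -0.20, against -0.30 over all genes, and 0.19 with median-ratio scaling. Among 26 matrix metalloproteinases, inhibitors and integrins, 10 were called lower, 6 under all 3 scalings, with Mmp8 at 5.30 ± 0.756 against 59.9 ± 1.29 TPM. Mmp13, a collagenase, was called higher, at 24.3, 24.6 and 26.3 TPM against 3.63, 4.20 and 3.50 TPM.

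Genes that IL-4 is known to induce, and the arginine pathway that they feed, differed without it. Of 16 arginine and polyamine genes, 4 were called higher and 2 lower, Arg1 and Paox, against 5.15% and 11.7% of all genes. Arg1, which turns arginine into ornithine, stood at 6.21, 7.54 and 3.02 TPM in NOD and at 124, 117 and 137 TPM in C57 (difference -4.34 ± 0.16, limma adjusted p = 1.1e-17). Slc7a2, which carries arginine into the cell, went the other way, at 103, 109 and 105 TPM against 16.6, 16.8 and 15.7 TPM, with 94.2% of its words shared with another gene model. Neither gene had overlapping libraries. The other arginine transporter Slc7a1 was 5.84-fold higher, and Odc1, the first enzyme of polyamine synthesis, and the mitochondrial arginase gene Arg2 were 2.30-fold and 2.20-fold higher. Of 27 alternative activation genes, 9 were called lower, 8 of them under all 3 scalings, and 1, Cd274, higher. Chil3 was at 2.92, 3.10 and 2.64 TPM in NOD and at 63.6, 71.2 and 61.3 TPM in C57, and Mrc1, the mannose receptor gene, was 3.99-fold lower. Retnla was listed at 0 in all NOD libraries and at 2.97, 3.94 and 4.91 TPM in C57. Chil1, a chitinase-like relative of Chil3, was higher instead, at 45.6 ± 1.23 against 0.147 ± 0.135 TPM.

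The receptor and signalling genes of IL-4 were called in both directions. Stat6, the transcription factor that IL-4 activates, stood at 21.6, 22.05 and 21.1 TPM in NOD and at 53.3, 59.0 and 49.2 TPM in C57. For Stat6 the difference of -1.28 became -0.89 with median-ratio scaling, no longer past 2-fold. Il4ra, a chain of the receptor, differed by -0.61 and Pparg, a nuclear receptor that IL-4 induces, by 0.32, and neither was called. Egr2, a factor of the late IL-4 response, stood at 25.2, 24.8 and 31.7 TPM against 14.4, 13.1 and 12.5 TPM, a difference of 0.97 that was not called with TPM as deposited and was past 2-fold at 1.36 with median-ratio scaling. Msx3 was at most at 1.39 TPM in the NOD and C57 basal libraries and was not called. Of the 20 genes on this list, 2 were called higher, Myc (10.7-fold) and Irf4 (4.55-fold), also under all 3 scalings. Another 4 were called lower, 1 of them under all 3 scalings. With median-ratio scaling the balance was the reverse, with 5 called higher and 1 lower. Over all genes, 5.15% were called higher and 11.7% lower with TPM as deposited.

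Transcription factors of the lineage were called in both directions, 9 of 40 higher and 7 lower, or 9 and 4 under all 3 scalings. Klf2, which restrains inflammatory genes, was 13.0-fold lower. Id3 and Id2, inhibitors of basic helix-loop-helix factors, were higher, Id3 at 136, 126 and 142 TPM against 8.16, 8.80 and 8.36 TPM and Id2 by 4.65-fold. Of the 20 macrophage markers, 1 was called higher and 6 lower, 5 of the latter under all 3 scalings. Among those lower were Aif1 (4.99-fold) and the efferocytosis receptor gene Mertk (6.85-fold), whereas Cd68 and Adgre1 were not called. For both lists the shares of all genes were 5.15% higher and 11.7% lower, or 5.1% and 5.68% under all 3 scalings.

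In metabolism, 7 of 24 glycolysis and HIF target genes were called lower and 1 higher, or 5 and 1 under all 3 scalings. For the lists of this paragraph, the shares of all genes were 11.7% lower and 5.15% higher, or 5.68% and 5.1% under all 3 scalings. The lactate exporter gene Slc16a3 stood at 49.1, 58.4 and 51.2 TPM in NOD and 275, 270.1 and 262 TPM in C57, the HIF targets Ankrd37 and Egln3 were 7.67-fold and 6.64-fold lower, and Pfkfb3 was 2.06-fold higher. Of 29 NRF2 targets and antioxidant genes, 8 were called lower but only 2 under all 3 scalings, with Nqo1 at 6.58, 6.57 and 6.28 TPM against 65.1, 56.0 and 59.7 TPM. Gsta4 was 4.48-fold higher. Cell cycle genes were called lower in 12 of 32, 4 of them under all 3 scalings, and 1 was called higher with median-ratio scaling only. Pcna, the sliding clamp of replication, was at 17.4 ± 2.02 against 54.9 ± 2.76 TPM, and Rrm2, which makes deoxynucleotides, at 0.551 ± 0.0178 against 3.03 ± 0.151 TPM.

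Markers of other cells were low in both strains, with exceptions. The neutrophil and precursor list summed to between 46.1 and 58.4 TPM in NOD and between 174 and 198 TPM in C57, with 4 of the 7 tested members lower, S100a9 and Prtn3 among them, and 3 under all 3 scalings, since S100a8 lost its call at -0.71 with median-ratio scaling. S100a9 was at 2.05, 2.29 and 1.80 TPM in NOD and 14.7, 18.4 and 18.1 TPM in C57. The dendritic cell list of 10 genes summed to between 2071 and 2146 TPM in NOD and between 1157 and 1273 TPM in C57. This list includes Bst2, which is also on the interferon-stimulated list. None of its 5 tested members was called with TPM as deposited, and 1 was called higher with median-ratio scaling. The lymphocyte list summed to at most 4.44 TPM and the mast cell, basophil and eosinophil list to at most 2.48 TPM in any library. The stromal and erythroid list reached 17.8 TPM in NOD and 6.12 TPM in C57, of which Dcn was called higher. The lymphocyte list had 1 gene called, Cd79b, which was lower, and the mast cell list had no called gene among 3. The part of such cells in the results was not tested. Genes in or near diabetes loci of NOD were called lower in 2 of 14, against 11.7% of all genes, Ptpn22 (6.40-fold) and Fcgr3, the latter not with median-ratio scaling. Of the 7 tested genes with a known lesion in either line, Ifi202b, Mx1 and Mx2 were called higher, while Slc11a1 differed by 0.16 and Nnt by 0.03 (limma adjusted p = 0.79), and neither was called. All 31-base words of Nnt (100%) also occur in other annotated genes, so its level is uncertain.

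Beyond the lists, 53 genes were higher by more than 3 on the log2 scale and 42 lower. Hal, which degrades histidine, was at 38.0, 37.5 and 39.4 TPM in NOD and at 0.447, 0.242 and 0.288 TPM in C57. Vill, a villin-like gene, was at 0.0730, 0.0580 and 0.0710 TPM in NOD and at 23.3, 21.4 and 24.2 TPM in C57, and the means of BALB, PWK and SPRET did not exceed 0.102 TPM. Of the 5 strains, C57 alone had a mean of Vill above this. Trim12a showed the same pattern, with at most 0.0680 TPM in NOD, at least 14.8 TPM in C57, and at most 0.796 TPM as a mean in the other strains. Several of the genes with the most negative differences encode ribosomal or proton pump subunits and resemble other genes, so their levels are uncertain. Rpl29, Rps18 and Atp6v0c, with differences of -6.62, -5.71 and -5.47, share 87.0%, 92.2% and 67.6% of their words with other genes. Over all genes, 10.8% shared at least 50% of their words, as did 14.8% of the genes called higher and 9.8% of those called lower, but 11 of 51 and 15 of 40 among those past 3 on the log2 scale.

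The basal libraries of the other strains were placed by distance to each parent of the comparison. For 286 of the 613 genes called higher (46.7%) BALB, PWK and SPRET all had log2(TPM + 1) means nearer to C57, and for 27 (4.4%) all were nearer to NOD. For the genes called lower these numbers were 571 of 1398 (40.8%) and 61 (4.36%). Where each strain had to lie within 2-fold of NOD or C57 and not of the other, all 3 were with C57 for 104 (16.97%) of the genes called higher and 177 (12.7%) of those called lower. Of the interferon-stimulated genes called higher, 9 of 15 had all 3 strains nearer to C57 and none had all 3 nearer to NOD. All 8 cholesterol genes called lower had them nearer to C57. For complement, by contrast, 4 of 10 had all 3 strains nearer to NOD and 1 had them nearer to C57, with C1qb at 88.2, 11.5 and 3.81 TPM in BALB, PWK and SPRET. The C57 libraries serve both sides of these distances, so the counts are a description.

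The strain difference was then read in the 6 libraries given IL-4, which are not part of the basal comparison but share its estimate of the spread. There 648 genes (5.44%) were called higher in NOD and 920 (7.73%) lower, and the median difference of all genes was -0.13. Of the 613 genes called higher without IL-4, 441 (71.9%) were called higher with it, and of the 1398 called lower 686 (49.1%). The sign was the same in 96.9% and 98.4%. These shares are of calls made with TPM as deposited, and they were not taken apart by scaling. The limma interaction tests the change of the difference itself. It passed an adjusted p of 0.05 with a change over 1 in 71 genes called higher and in 91 called lower. Of these, 62 and 67 narrowed. The genes were called by the basal difference, which the interaction subtracts, so narrowing was favoured in advance. The median of all genes also moved, from -0.30 without IL-4 to -0.13 with it. The part of this shift in the counts was not tested. The 15 interferon-stimulated genes and the 10 class I genes called higher were all called higher with IL-4 too, and no difference among them narrowed past this limit. Of the 12 chemokines, 8 were called higher with IL-4 and 6 narrowed. The difference of Cxcl1 was 4.93 without IL-4 and 2.81 with it, and that of Il6 2.98 and 0.32, an interaction of -2.66. For Slc7a2 it was 2.62 and 0.06 (interaction -2.55), and none of the 4 arginine genes called higher was called higher with IL-4. Ccl7 was called in opposite directions, with 2.86 and -1.70. Arg1 and Chil3 widened, to -5.50 and -7.83, with an interaction of -1.16 and -3.73. Ctsk was at -6.20, and its interaction of -0.16 did not pass.

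**Figure D4:**
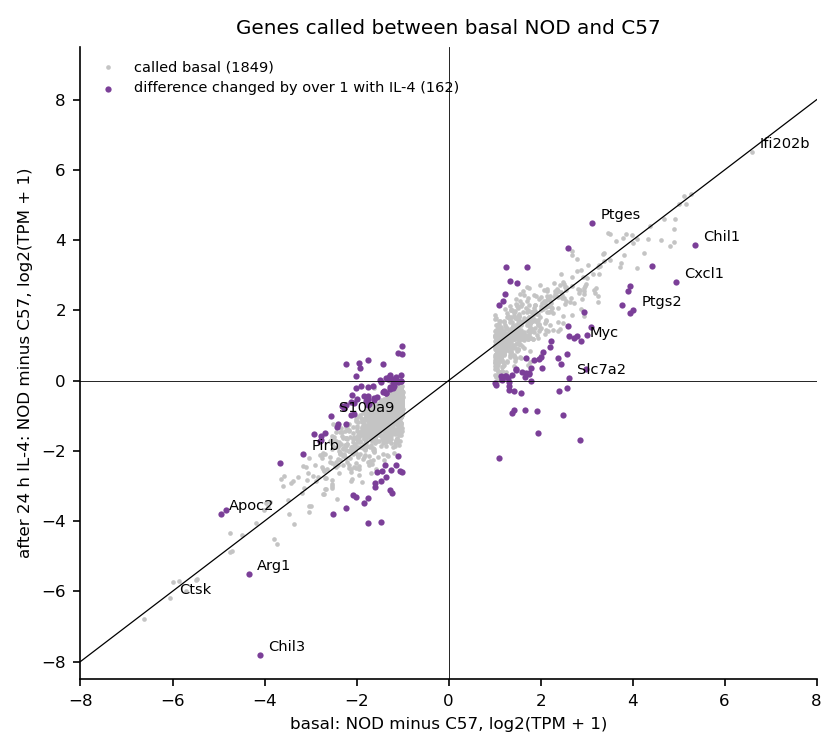
Difference NOD minus C57 on the log2(TPM + 1) scale for the 2011 genes called under basal conditions (x axis) against the difference after 24 hours of IL-4 (y axis), with the line of equal values. Purple points are the 162 genes whose difference changed by over 1 with an adjusted interaction p under 0.05; Slc7a2 lies near 0 on the y axis and Chil3 at -7.83.

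In F1 C57xNOD cells the C57 and the NOD allele of a gene lie in the same nucleus. The authors gave a value for each allele by weighting expression with the reads that overlap strain variants. Genes without such reads stand at 0. With a mean of at least 1 in either allele, 251 of the genes called higher and 702 of those called lower had a value. The NOD allele was higher in 177 (70.5%) of the former and lower in 393 (56.0%) of the latter, while over all 4951 genes with a value it was higher in 55.2%. The parental direction exceeded 2-fold between alleles in 74 and 127 genes, and the opposite direction did in 17 and 49. Over all 4951 genes, the NOD allele was past 2-fold higher in 429 and lower in 496. A 0 can mean that no informative read was found, and with both alleles above 0 the parental direction exceeded 2-fold in 33 of 177 and 57 of 557 genes and the opposite in 6 and 18. Where the parents differed by more than 3 on the log2 scale, the median allele difference was 1.13 over 30 genes called higher and -1.24 over 27 called lower, against parental medians of 3.86 and -3.96. Without genes that share at least 50% of their words these medians were 1.21 (21 genes) and -0.84 (14 genes). The allele values are weighted scores and not TPM, with 1 added on each scale, so the sizes of the 2 differences compare only roughly. These genes were also picked by a large parental difference, which favours smaller allele differences in advance.

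The allele values of single genes spanned this range. Ctsk was at 2548 and 2369 for the C57 allele and at 830.2 and 688 for the NOD allele in the 2 libraries, a difference of -1.70 against -6.04 between the parents. Arg1 was at 344 and 476 against 145 and 160.2, a difference of -1.41. C1qb was at 2328 and 2644 against 658 and 595. In all of these the allele of the lower strain was the lower one in both libraries. Hal was at 409 and 489.9 for C57 and at 1547 and 1599.8 for NOD, and Ccrl2 at 0 and 4.57 against 41.0 and 38.2. Ifi202b had a value in 1 library only, 18.8 for the NOD allele. Other genes were near even between alleles. Rsad2, at 104 and 48.9 against 84.2 and 71.1, Lpl, at -0.18, and Scd2, at -0.21, had allele differences within 0.5 of 0, while the parents differed by 2.29, -3.04 and -3.60. Ptges went against the parents with -1.32, on values below 10, and so did S100a8, with 6.78 against -1.10. Only 1 of the 15 interferon-stimulated genes called higher and 2 of the 12 chemokines had a value. Among complement genes 5 of 6 with a value had the parental direction, 4 of them beyond 2-fold.

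**Figure D5:**
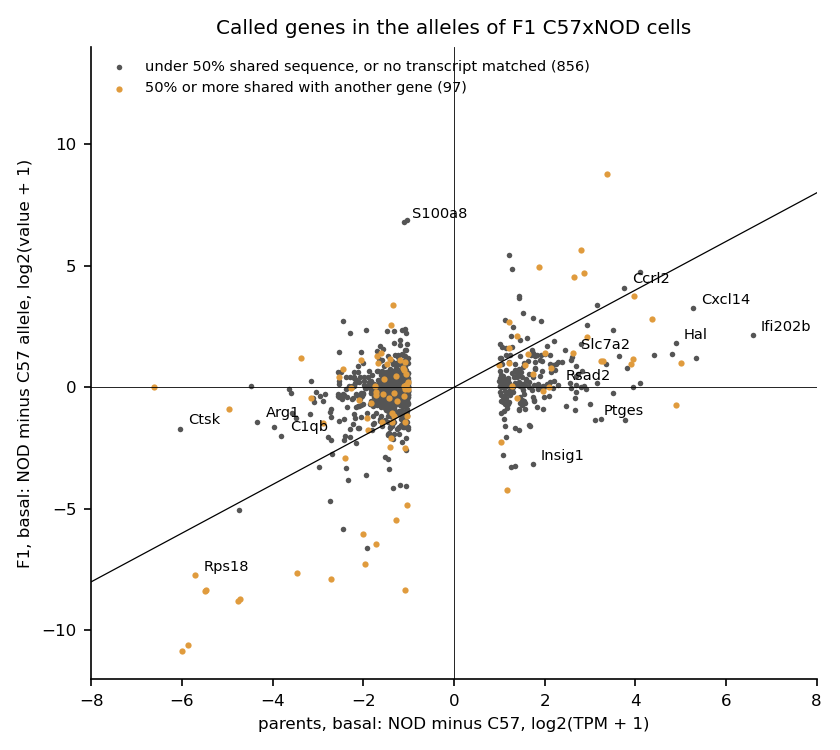
Parental difference (x axis, NOD minus C57, log2(TPM + 1)) against the difference between the alleles in basal F1 C57xNOD cells (y axis, NOD minus C57 allele, log2(value + 1), mean of 2 libraries) for the called genes with a value, with the line of equal values. Most points lie nearer to 0 on the y axis than on the x axis, but the axes hold unlike measures, an allele score and TPM. The genes were called by the x axis. Orange points are the 97 genes that share at least 50% of their 31-base words with another gene.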

How the data were processed

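RNA was measured by RNA-seq in BMDMs of 5 strains. The authors mapped reads with STAR to genomes of each strain made with MMARGE from mm10, shifted them to mm10 and deposited TPM from HOMER. For F1 cells, the deposited score per allele is such a value times the ratio of reads that overlap mutations, times 10. Counts were not used here, so the depth comes from the total tags that the file headers give, and no interval for counting error is given.

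The 11907 of 24537 genes that reached 1 TPM in 2 or more of the 29 libraries were tested. Values were transformed to log2(TPM + 1) and fitted in limma 3.58.1 (R 4.3.3) with trend, all 29 libraries in a single model with a mean per strain and condition, and Benjamini-Hochberg adjustment over all genes. Groups came from the labels. In simulated data for this comparison with 11907 genes, 199 of 200 genes changed by 2 on the log2 scale were called (99.5%), and 1 unchanged gene was called. The changed genes all had C57 means above 2 on this scale. The simulation held no shift in library composition, so it does not bear on the effect of scaling.

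Genes named were the 10 largest differences each way with at least 10 TPM in the higher strain and no overlap, genes under 0.1 TPM in a strain and at 5 TPM or more in the other, up to 4 called members per list, 11 fixed genes and members of the 5 longest runs. Results on some single genes are not reported here. Other list members were named after their values were seen. The gene lists (34) and members were chosen with earlier results of these data known. The share of a gene's 31-base words found in other genes was counted in transcripts of GRCm38, overlapping gene models included. Alternatives were other pseudocounts, filters, scalings, fits, omitted replicates and a replicate block. Same-numbered NOD and C57 libraries did not deviate together (r -0.0089, 0.027 and 0.014).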

Additional observations from a re-analysis of the deposited data

Results flagged for a closer look

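For 24 of the genes named, the strain difference itself changed by over 1 on the log2(TPM + 1) scale between basal cells and IL-4 (limma interaction, adjusted p under 0.05). Among genes higher in NOD without IL-4, the change was -2.66 for Il6, -2.55 for Slc7a2, -2.12 for Cxcl1, -2.03 for Cxcl2, -2.01 for Ptgs2, -1.97 for the collagenase gene Mmp13, -1.77 for Myc, -1.48 for Chil1, -1.27 for Slc7a1 and -1.21 for Irf4, so the NOD libraries were less far above C57 with IL-4. Ptges changed by 1.36 and was further above. Among genes lower in NOD without IL-4, Chil3 changed by -3.73, Arg1 by -1.16 and Fcgr3 by -1.03, further below C57. S100a9 changed by 1.56, the endosomal receptor gene Tlr13 by 1.20, Apoc2 by 1.16, its overlapping model Apoc4-apoc2 by 1.15, Pirb by 1.06, S100a8 by 1.06 and the glutathione transferase gene Gstp1 by 1.00, all nearer to C57. Msx3, Egr2 and Pparg, which were not called without IL-4, changed by -2.89, -1.88 and -1.03. In single genes, Msx3 went from a difference of -0.85 to -3.74 and Egr2 from 0.97 to -0.92. Genes named for a large basal difference are favoured to narrow, since the interaction subtracts that difference. The sources do not say whether basal and IL-4 libraries came from the same mice.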

How the results depend on the processing

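Of the 613 genes called higher and 1398 called lower, a pseudocount of 5 left 331 and 530, a pseudocount of 0.1 gave 2423 lower, and median-ratio scaling gave 1105 and 727, quantile normalization 950 and 767. Under all 3 scalings, a count added after seeing the data, 676 were lower. The cause was not tested. The 1127 genes called the same way with IL-4 became 1931 with a pseudocount of 0.1 and 544 with 5, and the 162 interactions, in alternatives also added later, 396 and 69. Leaving out 1 replicate gave 604 to 634 higher, 1351 to 1518 lower, 1125 to 1140 with IL-4, 153 to 183 interactions, and in F1 cells 162 to 179 higher and 351 to 393 lower in the parental direction. A replicate block, although the numbers showed no pairing, gave 615, 1398, 1127 and 163. Where the other strains had to lie within 2-fold of 1 strain and not of the other, 286, 27, 571 and 61 genes became 104, 8, 177 and 18. Runs held 185 genes at 50 kb and 1140 at 500 kb, against 362. Nnt reversed to -0.066 without NOD replicate 2, was between this and 0.107 without any single replicate, and was never called. Of the named genes, 20 lost their call with a pseudocount of 5, and Fcgr3, Fcgr4, Mgst1, Naip6, S100a8 and Stat6 did with median-ratio scaling. Of the libraries compared, C57 replicate 2 had the fewest tags.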

Other observations

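Some stress and metal genes are given here, picked after their values were seen and not as a group that was tested. Mt1, a metallothionein that binds zinc and copper, stood at 4367, 4465 and 4165 TPM in NOD and at 730.1, 603 and 698 TPM in C57, and Mt2 at 2838, 2916 and 2913 TPM against 287, 205 and 274 TPM. No libraries of the strains overlapped for either gene. The differences were 2.68 and 3.51 without IL-4 and 3.58 and 4.17 with it. Sqstm1, an adaptor of selective autophagy and a target of NRF2, was at 2629, 2579.8 and 2519 TPM against 881, 847 and 862 TPM, while the NRF2 target Nqo1 was lower. The inducible heat shock genes Hspa1a and Hspa1b differed by 3.94 and 4.90, although they share 72.1% and 69.4% of their words with other genes. Actb, often used as a reference gene, was lower in NOD with a difference of -1.29, which was -0.89 and no longer past 2-fold with median-ratio scaling.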
